A study of Mus musculus with 6 samples.

Results

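The interleukin 6 cytokine family and its signalling route were examined in C2C12 cells, a mouse myoblast line, after silencing of PARP2. The 10 genes described are the ligands Il6, Lif, Il11 and Clcf1, the receptor subunits Il6ra, Il6st, Lifr and Osmr, the transcription factor Stat3 and its feedback inhibitor Socs3, out of 19938 genes measured. Each gene was read from its brightest probe set, judged by the mean of the 6 arrays, among those annotated with that gene alone. The genes were chosen by the difference between the lines on these same arrays, so their values in that comparison are given as a description, with no p-value.

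The shPARP2 line had received lentiviruses (40 per cell, the multiplicity of infection) carrying an shRNA against PARP2, and the scPARP2 line had received a scrambled shRNA in the same way. Both lines were kept under puromycin, and the labels state that they were grown in high-glucose DMEM with fetal calf serum. For each line 3 RNA samples were measured, each on its own Affymetrix Mouse Gene array. There is 1 transduced line per condition, so PARP2 silencing cannot be told apart from whatever else separates the lines. Whether the samples came from separate cultures is not stated, and the p-values therefore reflect a spread between arrays that may be technical. The level of an mRNA per culture is measured, and fewer cells of a kind and less RNA per cell cannot be told apart.

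Cytokines of this family bind a receptor of their own, which joins the shared subunit Il6st at the cell surface. Janus kinases bound to the receptors then phosphorylate STAT3, which enters the nucleus and switches on genes that include Socs3, whose product shuts the receptor down. Skeletal muscle releases interleukin 6 during contraction, and members of the family act on the growth of myoblasts and, when present for long, on loss of muscle mass.

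Parp2 itself fell in shPARP2 cells, with 47.6% of the scPARP2 signal left (log2 fold change -1.07, standard error [SE] 0.10, limma adjusted p = 0.00103). The myoblast markers Myod1, Myf5, Des, Cdh15, Chrna1, Itga7 and Vcam1 were all bright, between the 81.0 and 96.6 percentiles of the signal of all probe sets. Of these 7 markers 5 rose and 1, Vcam1, fell, where 12.4% of all genes rose and 11.6% fell. Of the 7 macrophage and leukocyte markers none rose and Cd68 fell. The mean log2 signal of the leukocyte list lay between 6.34 and 6.42 on the scPARP2 arrays and between 6.30 and 6.37 on the shPARP2 arrays. Ptprc, Adgre1, Csf1r, Itgam and Lyz2 lay between the 17.9 and 29.8 percentiles. Cd68 and Cd14 lay higher, at the 59.5 and 51.4 percentiles. Lyz2 of that list read 5.79 and 6.47 in scPARP2 and shPARP2 cells, without overlap, and did not pass the test (limma adjusted p = 0.0565). Of the 4 fibroblast markers Col1a1 and Col3a1 rose while Dcn and Pdgfra fell, the mean of the list lying between 9.83 and 9.87 in scPARP2 and between 9.30 and 9.73 in shPARP2 cells, and none of the 4 endothelial and 3 adipocyte markers passed. The arrays of shPARP2 cells varied more among themselves, with a median SD per gene of 0.125 against 0.0614 in scPARP2 cells. Over all probe sets, 9.41% were higher and 9.14% lower in shPARP2 cells at an adjusted p under 0.05.

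Il6, the ligand that names the family, differed by far the most among the 10 genes. Its log2 signal was 5.85, 6.01 and 5.82 on the scPARP2 arrays and 8.80, 9.45 and 8.65 on the shPARP2 arrays. Every shPARP2 array read far above every scPARP2 array. The mean was 5.89 ± 0.10 (SD, n = 3) with the scrambled and 8.97 ± 0.43 (SD, n = 3) with the PARP2 shRNA. The log2 fold change was 3.07 (SE 0.21), or 8.41-fold. By the size of its log2 fold change in either direction Il6 had rank 25 of 19938 genes. Its probe set was dim in scPARP2 cells, at percentile 25.5 of all probe sets, and stood at percentile 73.5 in shPARP2 cells. A dim signal lies close to background, where the array understates a fold change. Under the 14 other ways of processing or leaving out an array the log2 fold change of Il6 stayed between 2.83 and 3.23.

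The other ligands differed less. Clcf1, the cardiotrophin-like cytokine that acts through the receptor of ciliary neurotrophic factor, read 8.73, 8.70 and 8.74 on the scPARP2 arrays and 9.53, 9.57 and 9.44 on the shPARP2 arrays. The lines did not overlap, and the log2 fold change was 0.79 (SE 0.07), or 1.73-fold. Il11, which shares Il6st with Il6 and is known from fibrosis and bone turnover, read 6.74, 6.74 and 6.64 in scPARP2 cells and 7.08, 6.94 and 7.00 in shPARP2 cells. The log2 fold change was 0.30 (SE 0.07), again with no overlap. Lif, the leukemia inhibitory factor, read 7.37, 7.13 and 7.13 in scPARP2 cells and 7.54, 7.92 and 7.16 in shPARP2 cells. The shPARP2 replicate 3 array of Lif lay within the scPARP2 range, and the log2 fold change of 0.33 had an SE of 0.19. Lif depended on single arrays, with a log2 fold change of 0.14 without shPARP2 replicate 2 and 0.52 without shPARP2 replicate 3, while Il11 stayed between 0.26 and 0.36 under all alternatives.

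**Figure D1:**
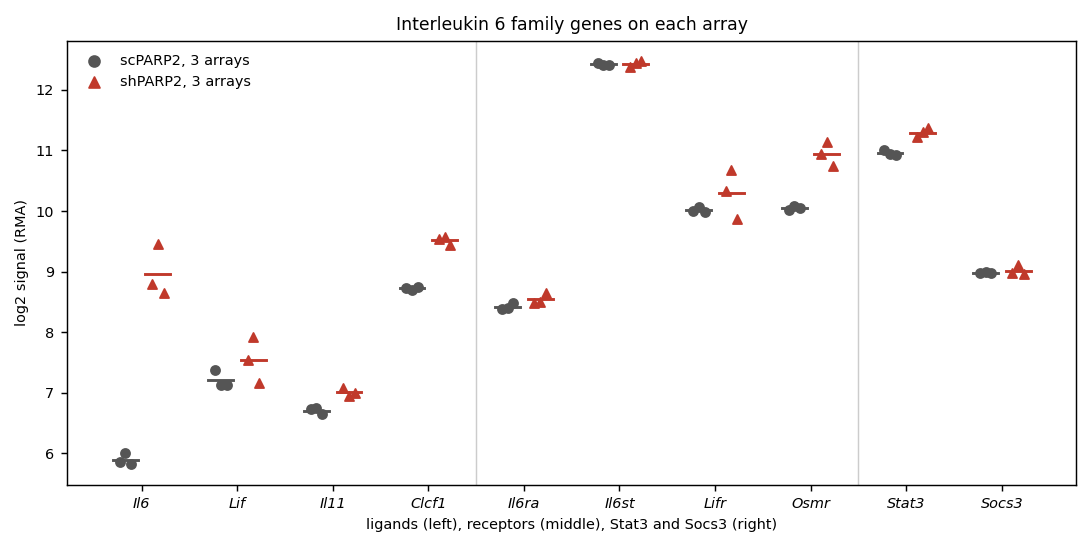
Log2 signal (vertical axis) of the 4 ligands, 4 receptor subunits, Stat3 and Socs3 on each of 6 arrays; circles are scPARP2 arrays, triangles shPARP2 arrays and bars the means of 3. The shPARP2 arrays lie above all scPARP2 arrays for Il6, Il11, Clcf1, Osmr and Stat3 and overlap with them for the other 5 genes; heights are comparable within a gene, not between genes.

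Among the receptor subunits, Osmr differed and the shared subunit did not measurably do so. Osmr, the oncostatin M receptor subunit that pairs with Il6st, read 10.02, 10.09 and 10.05 on the scPARP2 arrays and 10.94, 11.14 and 10.74 on the shPARP2 arrays. No shPARP2 array came near the scPARP2 range, and the log2 fold change was 0.89 (SE 0.11), or 1.85-fold. Il6st read 12.44, 12.42 and 12.41 in scPARP2 cells and 12.38, 12.44 and 12.48 in shPARP2 cells. The log2 fold change was 0.01 (SE 0.06), with a 95% confidence interval from -0.14 to 0.16, and its sign turned with array weights and without shPARP2 replicate 3. Il6ra, the subunit that binds interleukin 6 itself, read 8.38, 8.39 and 8.48 in scPARP2 cells and 8.48, 8.50 and 8.64 in shPARP2 cells. The lines overlapped slightly, with a log2 fold change of 0.12 (SE 0.07). Lifr, the receptor subunit for Lif, read 10.00, 10.06 and 9.98 in scPARP2 cells and 10.34, 10.68 and 9.87 in shPARP2 cells. Its shPARP2 replicate 3 was the lowest of all 6 arrays and replicate 2 the highest, so that the log2 fold change of 0.28 had an SE of 0.20. The log2 fold change of Lifr was 0.50 (SE 0.12) without shPARP2 replicate 3 and 0.09 (SE 0.15) without shPARP2 replicate 2.

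Stat3 read slightly higher in shPARP2 cells and Socs3 did not. Stat3 had 11.01, 10.95 and 10.93 on the scPARP2 arrays and 11.22, 11.30 and 11.37 on the shPARP2 arrays. The lines did not overlap, and the log2 fold change was 0.33 (SE 0.07), or 1.26-fold. Socs3 read 8.97, 9.00 and 8.98 in scPARP2 cells and 8.98, 9.11 and 8.95 in shPARP2 cells, with a log2 fold change of 0.03 (SE 0.07, 95% confidence interval -0.13 to 0.20). Socs3 was the only one of the 10 genes with another probe set of its own, and that dimmer probe set gave a log2 fold change of -0.01 (SE 0.08). Both probe sets thus placed the difference of Socs3 close to 0.

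Across the 10 genes all log2 fold changes were above 0, from 0.01 for Il6st to 3.07 for Il6, with a median of 0.32 against -0.02 over all 19938 genes. The smallest turned below 0 under some alternatives, Il6st with array weights (-0.02) and without shPARP2 replicate 3 (-0.01), and Socs3 without shPARP2 replicate 2 (-0.02). At an adjusted p under 0.05, adjusted over all probe sets in limma, Il6, Clcf1, Il11, Osmr and Stat3 passed and the other 5 genes did not, where 24.0% of all genes passed. The same 5 genes had lines that did not overlap, where 42.1% of all genes did not overlap. Il6, Clcf1 and Osmr passed and also differed by at least 1.5-fold, as did 10.1% of all genes. These counts describe genes that were listed with this comparison in view and carry no weight of their own. Without any 1 of the scPARP2 replicates only Il6, Clcf1 and Osmr passed, 3 of the 10, where 13.6% to 14.1% of all genes passed. Il11 no longer passed without shPARP2 replicate 1 or 3, and Lifr passed without shPARP2 replicate 3.

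The spread within the shPARP2 line had a shape that several of the genes shared. In 6 of the 10 genes (Il6, Lif, Clcf1, Lifr, Osmr and Socs3) shPARP2 replicate 2 read highest and replicate 3 lowest, an order found in 20.7% of all genes. The distance between these arrays was 0.81 on the log2 scale for Il6, 0.76 for Lif, 0.82 for Lifr and 0.40 for Osmr. It was only 0.13 for Clcf1 and 0.16 for Socs3, so the order of their arrays rests on small differences. For Il11, Il6ra, Il6st and Stat3 the order differed. For all 10 genes the SD was larger among the shPARP2 arrays than among the scPARP2 arrays, which was also the case for 78.4% of all genes.

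**Figure D2:**
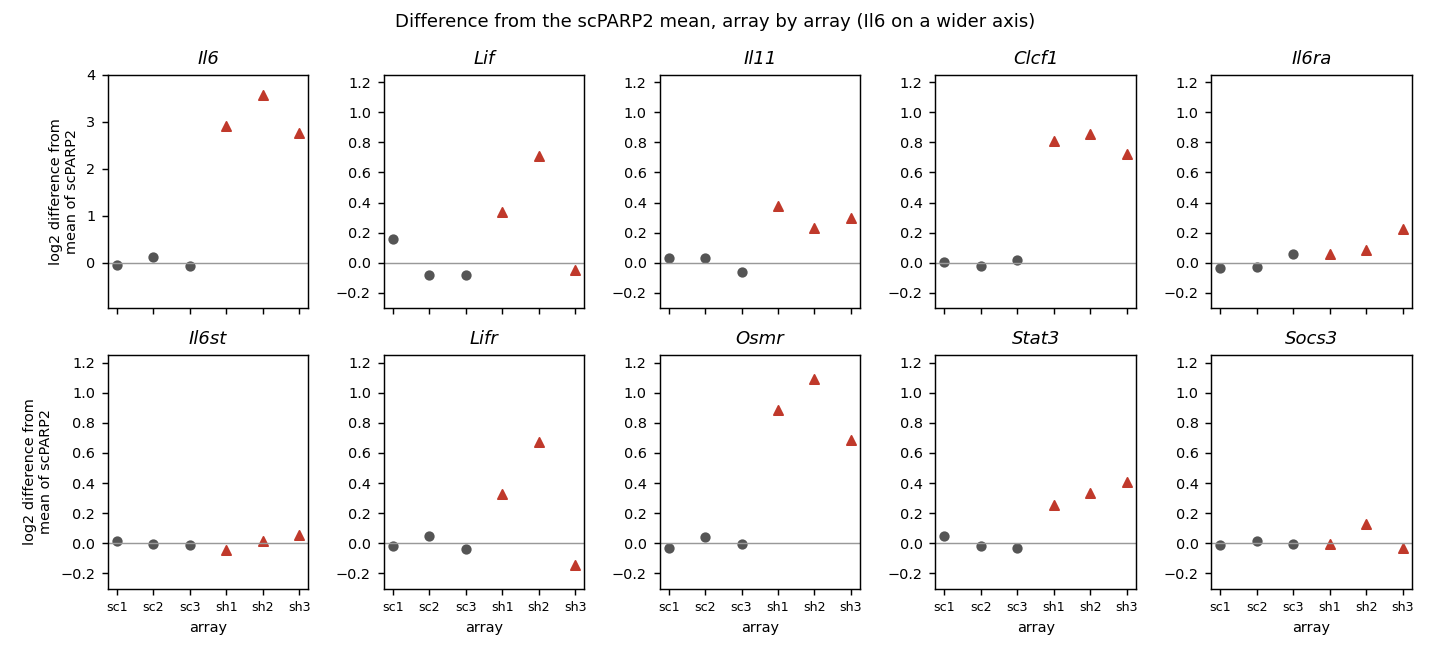
Each array minus the scPARP2 mean on the log2 scale (vertical axis, wider for Il6) for the 10 genes; circles are scPARP2 arrays sc1 to sc3 and triangles shPARP2 arrays sh1 to sh3. Array sh2 is the highest and sh3 the lowest of its line for Il6, Lif, Clcf1, Lifr, Osmr and Socs3, and sh3 lies below 0 for Lif, Lifr and Socs3.

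The genes whose profile over the 6 arrays lay nearest to that of Il6 were Plat, Prr9 and C1qtnf3. Nearness was the root mean square difference of the log2 values, each counted from the scPARP2 mean of its gene. It was 0.11 for Plat, which encodes tissue plasminogen activator, 0.15 for Prr9 and 0.15 for C1qtnf3, a secreted protein related to complement C1q. Their log2 fold changes were 2.99, 2.90 and 2.94, and in each of them shPARP2 replicate 2 read highest and replicate 3 lowest, as in Il6. These genes were selected for their likeness, so their values are a description as well.

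The sequence before the start of transcription was read for motifs of the factors that this family and inflammatory signals are known to use. RefSeq (GRCm38.p6) gave windows of 300 bases, 250 before and 50 after an annotated start, for 9 of the 10 genes and 11 starts; none was listed for Clcf1. The motifs, searched on both strands, were TTCNNNGAA for STAT factors, TGAGTCA for AP-1, GGGANTTTC for NF-kB and TTGCGCAA for C/EBP proteins. The AP-1 letters stood in windows of Il6, Lif and Il11, 3 of the 11 windows, and in 5.20% of all 32851 windows. The NF-kB letters stood in the window of Il6 and in 1.11% of all, the STAT letters in that of Socs3 and in 8.30% of all, and the C/EBP letters in none of the 11 and in 0.183% of all. The C/EBP letters are 1 exact sequence, found in 60 of the 32851 windows. Variants of the C/EBP site were not searched, so the lack of a match does not show that a window holds no such site. No match overlapped another. The windows with a match are shown because they set the AP-1 letters of Il6, Lif and 1 of the 2 Il11 windows beside the STAT letters of Socs3. They lie at chr5:30012864-30013163 (+ strand, Il6), chr11:4257318-4257617 (+ strand, Lif), chr7:4778092-4778391 (- strand, Il11, 1 of its 2 listed starts) and chr11:117969317-117969616 (- strand, Socs3), each written 5′ to 3′ with the matches in capitals.
Il6: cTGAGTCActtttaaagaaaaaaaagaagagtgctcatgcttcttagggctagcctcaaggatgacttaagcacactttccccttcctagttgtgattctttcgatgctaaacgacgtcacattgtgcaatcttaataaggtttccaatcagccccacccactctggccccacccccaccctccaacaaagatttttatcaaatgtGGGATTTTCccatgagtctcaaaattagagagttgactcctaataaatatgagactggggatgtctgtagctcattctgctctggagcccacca
Lif: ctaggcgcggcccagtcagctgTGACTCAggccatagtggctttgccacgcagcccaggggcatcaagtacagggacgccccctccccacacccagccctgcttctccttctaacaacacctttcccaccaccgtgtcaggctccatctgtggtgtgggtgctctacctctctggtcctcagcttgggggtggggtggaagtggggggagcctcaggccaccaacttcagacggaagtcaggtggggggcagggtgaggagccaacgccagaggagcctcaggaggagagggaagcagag
Il11: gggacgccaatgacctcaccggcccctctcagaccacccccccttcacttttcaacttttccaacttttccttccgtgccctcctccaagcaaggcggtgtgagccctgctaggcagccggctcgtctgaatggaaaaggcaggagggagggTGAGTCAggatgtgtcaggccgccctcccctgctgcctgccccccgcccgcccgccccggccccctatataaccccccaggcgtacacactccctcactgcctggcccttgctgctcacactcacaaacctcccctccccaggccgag
Socs3: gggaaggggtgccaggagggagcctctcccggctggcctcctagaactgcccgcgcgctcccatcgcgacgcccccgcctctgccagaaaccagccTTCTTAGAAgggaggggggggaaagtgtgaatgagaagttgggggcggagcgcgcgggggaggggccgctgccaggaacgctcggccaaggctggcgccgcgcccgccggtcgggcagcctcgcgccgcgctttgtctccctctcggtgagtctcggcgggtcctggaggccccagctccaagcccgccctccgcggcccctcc

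In the Il6 window the AP-1 letters begin 249 bases and the NF-kB letters 44 bases upstream of the start. The AP-1 letters begin 228 bases upstream in Lif, on the other strand, and 98 bases upstream in Il11. The STAT letters of Socs3 begin 154 bases upstream. The windows of Il6ra, Il6st, Lifr, Osmr and Stat3 held none of these letters. Of the genes with AP-1 letters, Il6 had a log2 fold change of 3.07, Lif of 0.33 and Il11 of 0.30, while Osmr, with a log2 fold change of 0.89, had none of the motifs. Clcf1, with a log2 fold change of 0.79, had no window to search. No relation between the letters and the fold changes was tested. A match is a stretch of letters in a short window, and binding was not measured.

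Beyond the 10 genes, 69 further genes of the pathway were listed by role, of which 63 had a probe set of their own, and these were tested. The lists were drawn up with earlier results of these data known, so the counts below are no independent check. At an adjusted p under 0.05 in limma 15 of the 63 rose (23.8%) and 4 fell (6.35%) in shPARP2 cells, where 12.4% of all genes rose and 11.6% fell. The median log2 fold change was 0.10, against -0.02 over all genes. The remaining 44 did not pass. The listed genes were brighter than most: 9 of the 63 lay below the median signal of all probe sets, against 8685 of all 19938 genes. The shares of all genes above are therefore taken over dimmer genes. Without dim probe sets 21.4% of the 13351 genes left rose and 41.5% passed, and 18 pathway genes rose and 8 fell. Whether the pathway genes rose more often than genes of like signal was not tested.

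None of the 6 measured ligands of the family outside the list above passed the test. The smallest p-values were those of Ctf1, or cardiotrophin, with 6.80, 6.84 and 6.79 in scPARP2 cells and 7.17, 7.00 and 6.99 in shPARP2 cells (log2 fold change 0.24, limma adjusted p = 0.0701), and of Osm, the ligand of Osmr (log2 fold change -0.21, SE 0.15, limma adjusted p = 0.427). Osm read between 6.39 and 6.56 in scPARP2 cells and between 5.98 and 6.54 in shPARP2 cells, a dim signal at percentile 34.3. Ctf1 passed on 4 of the alternatives, without dim probe sets, among single-gene probe sets, with array weights and with the mean of its probe sets (adjusted p from 0.0122 to 0.0368). Of the 5 other receptors and shedding proteases Il27ra, the receptor of the related cytokine interleukin 27, rose, with a log2 fold change of 0.29 (SE 0.08, limma adjusted p = 0.0417). That call ended with a replicate block and without any 1 array except shPARP2 replicate 2 (adjusted p from 0.0554 to 0.171). Adam10 and Adam17, the proteases that cut Il6ra from the cell surface, had log2 fold changes of -0.12 each and did not pass.

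Among the 9 measured kinases, STATs and adaptors, 3 rose and none fell. Thus 33.3% passed, where 24.0% of all genes passed in the same fit. The 41.5% of genes that passed without dim probe sets came from a separate fit, in which this list was not counted. Jak2, a Janus kinase of these receptors, read 9.08, 9.02 and 9.07 on the scPARP2 arrays and 9.77, 9.93 and 9.92 on the shPARP2 arrays. This is a rise of 0.82 on the log2 scale (SE 0.07, limma adjusted p = 0.000848), or 1.76-fold, with no overlap. Gab1 and Ptpn11, the adaptor and the phosphatase that lead from Il6st to the MAP kinase branch, rose by 0.69 and 0.38 (limma adjusted p = 0.00722 and 0.00765). Jak1, the kinase most tied to Il6st, had a log2 fold change of 0.06 and did not pass. Tyk2 had a log2 fold change of -0.25 and lay near the threshold (limma adjusted p = 0.0563). Jak1 and Tyk2 and, further on, Socs1, Socs7, Cebpb, Cebpd, Zc3h12a, Zfp36, Trim63 and Mstn are named after their values were seen, as are Adam10 and Adam17.

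Inhibitors of cytokine signalling went in both directions. Of 14 genes 4 rose, 1 fell and 9 did not pass. Thus 35.7% passed, where 24.0% of all genes passed in the same fit. The 41.5% of genes that passed without dim probe sets came from a separate fit, in which this list was not counted. Socs2, which dampens growth hormone signalling and belongs to the same family as Socs3, read 10.38, 10.42 and 10.33 in scPARP2 cells and 11.22, 11.39 and 11.18 in shPARP2 cells. It rose, with a log2 fold change of 0.88 (SE 0.08, limma adjusted p = 0.000969). Socs6 and Socs7 rose by 0.74 and 0.57 on the log2 scale, and Ptpn2, a phosphatase that removes phosphate from STAT and JAK proteins, by 0.80 (limma adjusted p = 0.00127). With the probe sets of each gene averaged, the log2 fold changes of Ptpn2 and Socs6 were 0.49 and 0.47, and both still passed. Pias3, the protein inhibitor of activated STAT3, read 9.17, 9.16 and 9.18 in scPARP2 cells and 8.23, 8.55 and 8.14 in shPARP2 cells. It fell, with a log2 fold change of -0.86 (SE 0.11, limma adjusted p = 0.00359). Socs1, the closest relative of Socs3 in function, had a log2 fold change of -0.17 and did not pass.

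Of 16 genes that textbooks list as targets of STAT3, 5 rose, 1 fell and 10 did not pass. Thus 37.5% passed, where 24.0% of all genes passed in the same fit. The 41.5% of genes that passed without dim probe sets came from a separate fit, in which this list was not counted. Timp1, the inhibitor of matrix metalloproteinases, read 10.74, 10.94 and 10.90 in scPARP2 cells and 11.92, 12.07 and 11.89 in shPARP2 cells. It rose, with a log2 fold change of 1.10 (SE 0.09, limma adjusted p = 0.000606). The AP-1 subunits Fos and Junb rose by 1.02 and 0.80 (limma adjusted p = 0.0126 and 0.00126), and the call of Fos ended without scPARP2 replicate 3 (limma adjusted p = 0.0519). The C/EBP factors Cebpd and Cebpb rose by 0.73 and 0.39. Lcn2, or lipocalin, an acute phase protein, read 8.06, 8.32 and 8.20 in scPARP2 cells and 7.03, 7.36 and 7.10 in shPARP2 cells. It fell, with a log2 fold change of -1.03 (SE 0.11, limma adjusted p = 0.00188), opposite to the other 5. Many of these genes answer to other factors too, and the phosphorylation of STAT3 was not measured on the arrays.

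Regulators of Il6 transcription and mRNA decay gave 2 rises and 1 fall among 10 measured genes. Thus 30% passed, where 24.0% of all genes passed in the same fit. The 41.5% of genes that passed without dim probe sets came from a separate fit, in which this list was not counted. Arid5a, an RNA-binding protein that stabilizes Il6 mRNA, read 8.49, 8.62 and 8.50 in scPARP2 cells and 9.37, 9.63 and 9.20 in shPARP2 cells. It rose, with a log2 fold change of 0.86 (SE 0.12, limma adjusted p = 0.00436). Zfp36l1, an RNA-binding protein that promotes the decay of AU-rich mRNAs, read 10.52, 10.38 and 10.38 in scPARP2 cells and 9.34, 9.78 and 9.00 in shPARP2 cells. It fell by 1.05 (SE 0.19, limma adjusted p = 0.0117). Zc3h12a and Zfp36 of the same list had log2 fold changes of 0.06 and 0.21, opposite in sign to Zfp36l1. Neither passed (limma adjusted p = 0.691 and 0.112). Nfkbia, the NF-kB inhibitor that NF-kB itself induces, rose by 0.30 (SE 0.06, limma adjusted p = 0.0211), but its call ended with a replicate block and without any 1 of 4 arrays, all but shPARP2 replicates 2 and 3 (adjusted p from 0.0547 to 0.109). Of 3 muscle atrophy genes Fbxo32, the ubiquitin ligase atrogin, fell by 1.61 (SE 0.09, limma adjusted p = 0.000183), with 10.31, 10.52 and 10.40 in scPARP2 cells and 8.72, 8.75 and 8.93 in shPARP2 cells. Trim63, the other muscle ubiquitin ligase, and Mstn, or myostatin, had log2 fold changes of -0.0048 and 0.04 and did not pass. No relation between these genes and the level of Il6 was tested.

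**Figure D3:**
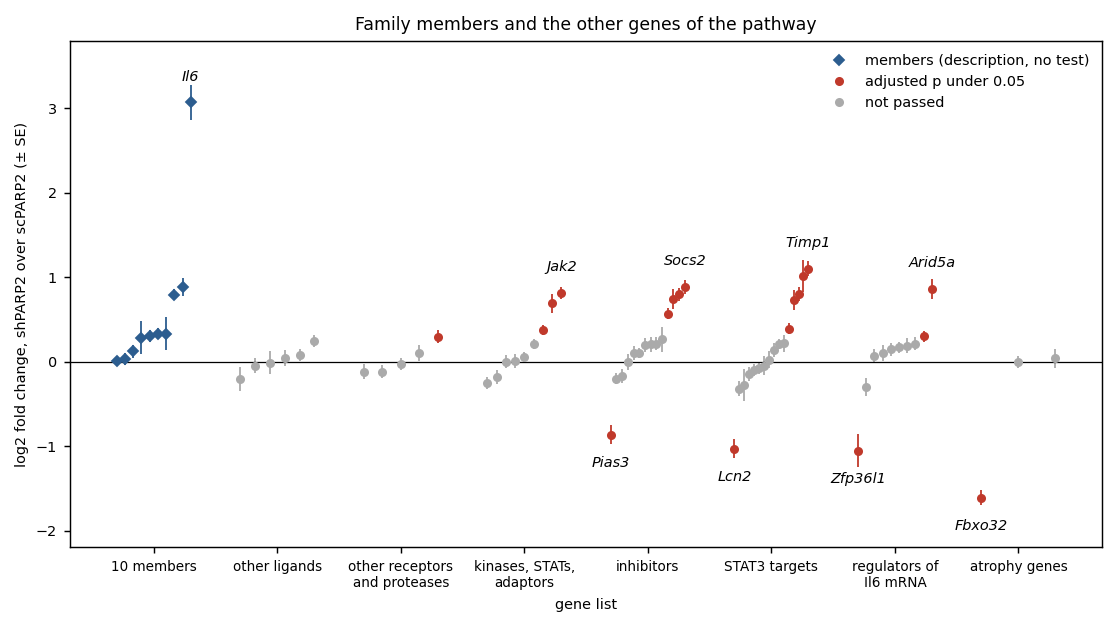
Log2 fold change of shPARP2 over scPARP2 cells (vertical axis, bars are standard errors, n = 3 arrays per line) for the 10 family genes (diamonds) and 63 further genes of the pathway in 7 lists (circles), ordered by size within a list. Red circles passed an adjusted p of 0.05; they are 15 above 0 and 4 below (Fbxo32, Zfp36l1, Lcn2 and Pias3), and Il6 at 3.07 lies above every other point.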

How the data were processed

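The deposited values are log2 signals for 35556 probe sets on 6 arrays, made with RMA per the submitters' processing notes, with no version or array library given. The study's methods start from raw data; the deposited log2 signals were the starting point here. Gene names came from the platform annotation and were updated to RefSeq symbols, matched for 21698 of 21789 probe sets naming 1 gene; 1621 probe sets with several genes and 12146 unnamed ones gave no gene. The lines were compared with limma 3.58.1 (lmFit, eBayes, no covariate) in R 4.3.3, the study's own tool, and p-values were adjusted over all 35556 probe sets (Benjamini-Hochberg); an adjusted p under 0.05 passed. Standard errors are moderated. An array gives no read depth; the 3 arrays per line limit the precision. The fit was also run on simulated data with 200 changed probe sets and an equal spread in both lines. The measured lines differed in spread, so that run cannot show how the fit performs on them.

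The members, lists, motifs and tests were chosen with earlier results of these data known. Besides the members, the genes named are Parp2, up to 4 genes per list with the largest change among those that passed (2 with the smallest p where none did), the 3 profiles nearest to Il6, the markers, and those marked as named after their values were seen. Of the 69 listed pathway genes 63 were analysed; the others are not reported here, and protein sequences were not used. The alternatives were quantile normalization, median centring, omission of probe sets below percentile 40, testing of single-gene probe sets alone, a robust variance with a trend, array weights, a replicate block, thresholds of 0.01 and of 1.5-fold, omission of each array, and averaging of the probe sets of a gene. Figures were drawn with matplotlib 3.10.9.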

Additional observations from a re-analysis of the deposited data

How the results depend on the processing

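The members that passed numbered 5 in the reported fit. They numbered 3 (Il6, Clcf1 and Osmr) with the replicate number as a block, at an adjusted p under 0.01 and with a change of at least 1.5-fold, and 3 to 5 when each array was left out in turn; without shPARP2 replicate 3 the 5 held Lifr in place of Il11. Of all genes 24.0% passed in the reported fit, 17.3% with the block, 12.9% at 0.01, 10.1% with 1.5-fold and 13.6% to 25.9% with an array left out. Members also numbered 5 without dim probe sets, where 41.5% of the 13351 genes left passed. They numbered 5 with array weights, single-gene probe sets alone and averaged probe sets, where 31.2%, 29.1% and 29.0% of all genes passed. No member was called lower under any of these alternatives. The pathway genes that fell numbered 8, not 4, and those that rose 18, not 15, in some settings. These were omission of dim probe sets, single-gene probe sets alone, array weights and averaging of the probe sets of a gene. In these settings 29.0% to 41.5% of all genes tested passed and 14.7% to 21.4% rose, against 24.0% and 12.4% in the reported fit. When each array was left out, 4 to 6 pathway genes fell. Over all probe sets, 3345 were higher and 3249 lower, and with each array centred on its median 3320 and 2512, so that the higher share of calls went from 50.7% to 56.9%. At an adjusted p under 0.01 these were 1736 and 1589, and with a change of at least 1.5-fold 1458 and 1327. With array weights 4941 were lower. When each array was left out, 1842 to 3449 were higher and 1761 to 3782 lower. The lowest counts were those without a scPARP2 replicate, and those without shPARP2 replicate 2 were above the reported ones. Whether equal replicate numbers pair the samples is not stated. The deviations of arrays with the same number correlated at -0.05, 0.09 and 0.01, and those with unlike numbers at -0.10 to 0.09. Such correlations over all probe sets cannot settle whether the samples are paired. With the replicate number as a block 2455 probe sets were higher and 2338 lower, and 13 pathway genes rose and 4 fell. Among 42 genes recomputed under the alternatives (the members, Parp2, the pathway genes named except Zc3h12a and Zfp36, and the 3 nearest to Il6), the 28 that passed kept their sign. Trim63, at -0.0048, turned to 0.0105 with quantile normalization, 0.0151 with centring and 0.0362 without shPARP2 replicate 3, within -0.0431 to 0.0362 when each array was left out. Mstn, at 0.04, turned to -0.0293 without shPARP2 replicate 3, within -0.0293 to 0.1563 when each array was left out; neither passed. For Il6st, quantile normalization moved the value from 0.01 to 0.06. Dim signals such as those of Il6 and Il11 in scPARP2 cells limit how far a lower level could be seen.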
